A study of Mus musculus with 12 samples.

Results

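The 33 genes described here are 18 targets of hypoxia-inducible factor (HIF) outside glycolysis and 15 glycolytic enzymes, given as a list of gene names. Each was represented by the probe with the highest mean signal over the 12 arrays. They are 33 of the 19180 features tested, of which 13266 had a gene symbol, and all 33 were well above background on all 12 arrays. The study measured gene expression in somatic cells purified from fetal mouse gonads at embryonic day 11.5, around the time of sex determination, in embryos with or without a working Jmjd1a gene (current symbol Kdm3a). The 4 groups, each of 3 single embryos, were female and male controls heterozygous for the Jmjd1a mutant allele, and female and male mutants homozygous for it. Thus the controls also carried 1 mutant allele, and wild-type embryos were not analysed here. All embryos carried a transgene that puts CD271 on cells in which Nr5a1 is active, and CD271-positive cells were isolated with magnetic beads from trypsinized gonads and mesonephroi. The labels name no litters, so the spread is that between single embryos.

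HIF is a transcription factor made of an oxygen-sensitive alpha subunit and the stable partner Arnt. In normal oxygen the prolyl hydroxylases of the Egln family mark the alpha subunit for destruction. In low oxygen it persists, binds short DNA elements and raises genes for glucose uptake, glycolysis, lactate export, blood vessel growth and mitochondrial turnover. Kdm3a removes methyl groups from lysine 9 of histone H3, is itself known as a HIF target, and is known as a coactivator at some HIF target genes.

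A core of the DNA element that HIF binds is ACGTG, and it was searched on both strands (ACGTG or CACGT) in windows from 250 bases before to 50 bases after each RefSeq gene start, on GRCm38.p6. In total 31 of the 33 genes had such a window. ACGTG was present in 14 of 18 windows of the HIF targets (77.8%), in 12 of 24 windows of the glycolytic enzymes (50%), in 24.7% of the windows of all features tested and in 19.6% of all 32851 windows. Some genes had several windows, which can overlap. Counted by gene, ACGTG was present for 14 of 16 HIF targets and 10 of 15 enzymes with a window, beside 3020 of 10574 features tested. The core GCGTG was found in 59.5% of the windows of the 33 genes and 48.9% of those of features tested, and CACGTG, which contains ACGTG and is also the E-box of other factors, in 7.14% and 9.64%. The upstream stretches printed next, 5′ to 3′ on the strand of the gene and with the core in capitals, belong to 8 genes of the mutant comparison whose windows held the core, with Pgk1 and Ldha added as enzymes of lower glycolysis.
Slc2a1, chr4:119108697-119108725, plus strand: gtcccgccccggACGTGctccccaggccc
Slc16a3, chr11:120949028-120949056, plus strand: caggcagcggtgACGTGcgcgggggacgt
Ddit4, chr10:59951941-59951969, minus strand: agaacgttgcgaACGTGcgcccggtgcct
Egln1, chr8:124949306-124949334, minus strand: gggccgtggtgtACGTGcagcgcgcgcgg
Egln3, chr12:54204087-54204115, minus strand: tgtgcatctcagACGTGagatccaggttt
Hk2, chr6:82774490-82774518, minus strand: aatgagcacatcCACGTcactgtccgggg
Pfkfb3, chr2:11553973-11554001, minus strand: ctccgcgccgtgACGTGccaagctgtgac
Pkm, chr9:59657140-59657168, plus strand: ctccgatccggtCACGTccgcgccgcagc
Pgk1, chrX:106186938-106186966, plus strand: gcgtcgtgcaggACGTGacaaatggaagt
Ldha, chr7:46845758-46845786, plus strand: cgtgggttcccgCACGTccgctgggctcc
The Slc16a3 core began 27 bases before the start and the Slc2a1 core 36 bases before it, while the Egln3 core lay 229 bases upstream. A match is a description of the letters in the window and not evidence of binding.

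Levels are log2 signals with the 75th percentile of their array set to 0, and differences are log2 differences with the standard error (SE) of a limma fit over all 12 arrays. Levels of different genes are not compared, since each probe has its own response. The arrays were read on 3 slides of 4: slide 1 carried mutant male 1 and the 3 control males, slide 2 control females 1 and 2 together with mutant males 2 and 3, and slide 3 the mutant females and control female 3. Kdm3a, the targeted gene, was lower on every mutant array, by 1.95 in males (limma adjusted p = 9.0e-05) and by 2.28 in females (limma adjusted p = 4.2e-05). All 6 markers of gonadal somatic cells (Nr5a1, Wt1, Gata4, Lhx9, Emx2 and Cbx2) were well above background on all 12 arrays. So were 8 of 8 mesenchyme, 6 of 8 erythroid, 5 of 8 endothelial and 5 of 8 mesonephric epithelium markers. Of 6 germ cell markers with a probe, 3 were well above background on all 12 arrays and 1, Dazl, on none. Because these are bulk samples, fewer cells of a type and less RNA per cell cannot be told apart.

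The distances between arrays did not always follow the labels. Control female 3 had a median absolute difference of 0.413 and 0.361 from control females 1 and 2, but of 0.168, 0.160 and 0.235 from the mutant females on its own slide. Its level lay nearer to the mean of the mutant females than to that of control females 1 and 2 for 24 of the 33 genes (72.7%), and for 77.5% of all features tested. Its Kdm3a level of 2.96 was that of the other controls. The female and averaged mutant differences, and the sex differences in controls, include control female 3 unless its omission is stated. Mutant male 2 also lay nearer to the control males (0.20, 0.15 and 0.21) than to mutant males 1 and 3 (0.29 and 0.29). From control females 1 and 2, on its own slide, it differed by 0.16 and 0.18. The results for mutant males include it, apart from the fits that leave out each array in turn.

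**Figure D1:**
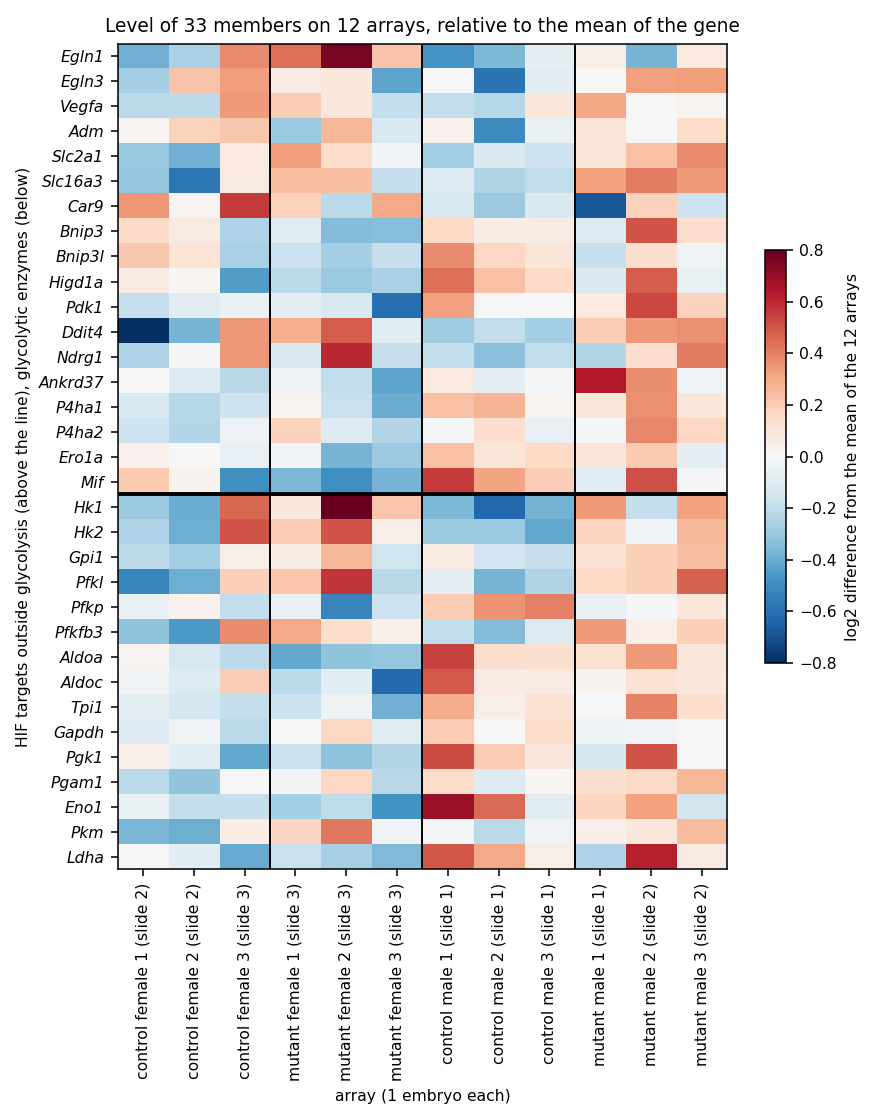
Level of each of the 33 genes (vertical axis) on each of the 12 arrays (horizontal axis), as the log2 difference from the mean of that gene over the 12 arrays. In the female controls, array 3 has the opposite colour to arrays 1 and 2 for Slc2a1, Slc16a3, Ddit4, Hk1, Hk2, Pfkl and Pfkfb3.

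No gene of the 33 passed the threshold of a limma adjusted p of 0.05 for the mutant difference in males, in females or averaged over the sexes, where 0.469%, 0.355% and 1.12% of all features did. At an unadjusted limma p under 0.05 the counts were 7 in males (6 higher, 1 lower), 3 in females (all higher) and 12 for the average (10 higher, 2 lower), against 11.9%, 10.4% and 23.6% of all features. By direction the shares of all features were 5.08% higher and 6.78% lower in males, 4.21% higher in females, and 11.3% higher and 12.4% lower on average. The HIF targets had a median mutant difference of 0.19 in males and -0.12 in females, and the glycolytic enzymes of 0.023 and 0.14. The median over all features was -0.045 and -0.054. The medians of the 18 and the 15 genes varied between embryos of a group with an SD of 0.109 and 0.124. The 95% interval of the difference stayed within 2-fold for 30 of the 33 genes in each sex and for all 33 on average. The exceptions were Ddit4, Hk1 and Pfkl in males and Egln1, Ddit4 and Hk1 in females.

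**Figure D2:**
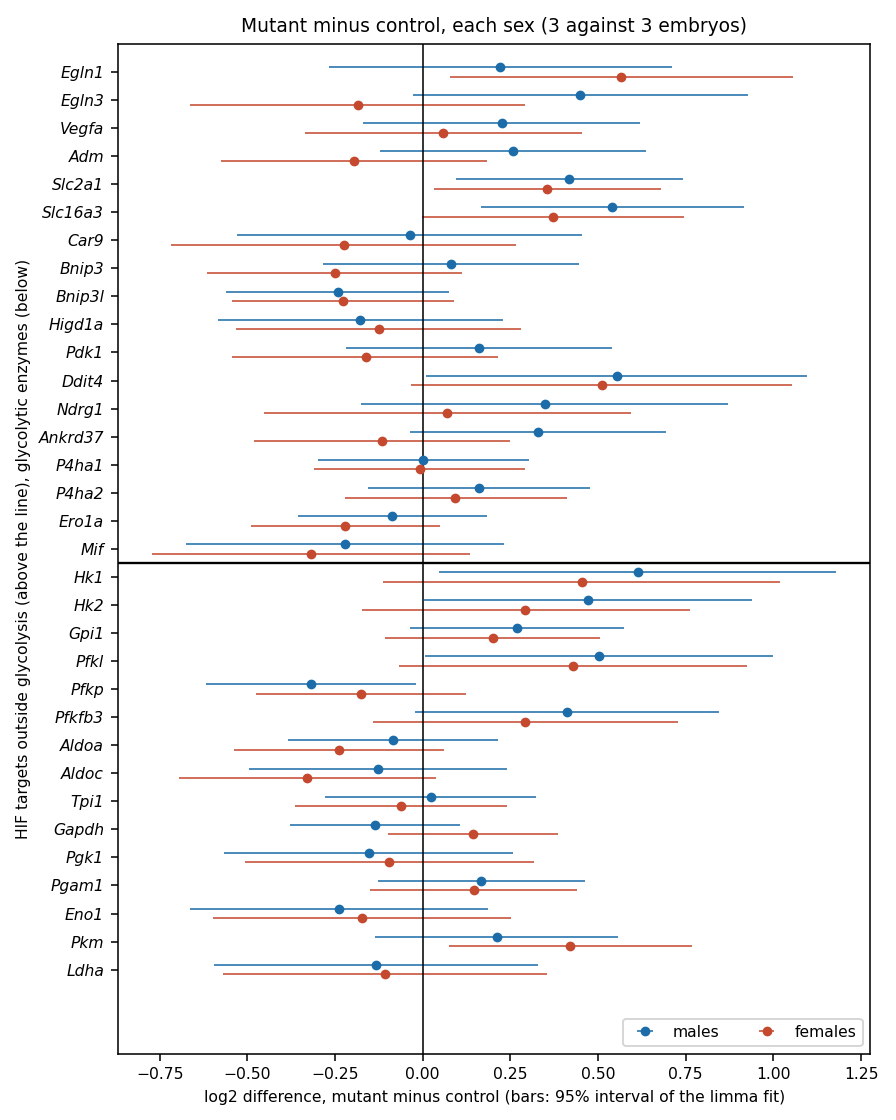
Mutant minus control difference of each gene in log2 units (horizontal axis) in males and females, 3 against 3 embryos, with points for the limma estimate and bars for its 95% interval. Slc16a3, Slc2a1, Ddit4, Hk1 and Pfkl lie to the right of 0 in both sexes, while Bnip3l, Mif, Pfkp, Aldoa, Aldoc and Eno1 lie to the left in both.

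Although no gene passed the test, 10 of the 33 (30.3%) had all 3 mutant males above all 3 control males, where 8.41% of all features did. They were the glucose transporter Slc2a1, the lactate exporter Slc16a3, the HIF prolyl hydroxylase Egln3, the mTORC1 inhibitor Ddit4, and 6 glycolytic enzymes: Hk1, Hk2, Gpi1, Pfkl, Pfkfb3 and Pkm. Of these enzymes, all but Pkm act on glucose, its phosphates or the control of phosphofructokinase, upstream of the aldolase step. Of the 8 listed enzymes from aldolase to enolase and of lactate production (Aldoa, Aldoc, Tpi1, Gapdh, Pgk1, Pgam1, Eno1 and Ldha), none separated the groups in this direction. At a share of 8.41% of all features, a count of none among 8 genes is not a result about these enzymes. The split by step was not tested. In the opposite direction, 1 gene (Pfkp, which also acts upstream of the aldolase step) had all mutant males below all control males, as did 11.9% of all features. In females no gene had all mutants above all controls, which 5.32% of all features had, and 2 genes, Aldoa and Eno1, had all mutants below, against 7.43%. No gene separated mutants from controls in the same direction in both sexes, as 2.97% of features did.

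Slc16a3, which exports lactate from glycolytic cells, had the smallest p of the 33 for the averaged mutant difference. Its level was 3.92, 3.79 and 3.83 in the control males against 4.35, 4.44 and 4.37 in the mutant males. The female arrays gave 3.72, 3.45 and 4.10 in controls against 4.27, 4.27 and 3.84 in mutants. The male groups were far apart relative to their spread, whereas in females control female 3 lay above mutant female 3. The difference was 0.54 ± 0.17 (SE) in males (limma adjusted p = 0.281), 0.37 ± 0.17 in females (limma adjusted p = 0.478) and 0.46 ± 0.12 on average (limma adjusted p = 0.106). With normexp background correction the averaged difference was 0.56 and passed the threshold (limma adjusted p = 0.0274), as did 1.21% of all features. Within slides it was 0.51 in males, where 1 mutant met 3 controls, and 0.03 in females, where 3 mutants met control female 3.

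Slc2a1, which imports glucose, read 2.02, 2.18 and 2.13 in the control males against 2.39, 2.53 and 2.67 in the mutant males. The female controls read 1.99, 1.91 and 2.37 and the female mutants 2.63, 2.44 and 2.27. Again the males did not overlap, and among females control female 3 was within the mutant range. The mean difference over the sexes was 0.39 ± 0.10 (limma adjusted p = 0.112), with 0.28 within slide 1 and 0.08 within slide 3.

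Ddit4, an inhibitor of the growth kinase complex mTORC1 that is induced by hypoxia and other stresses, read 4.57, 4.66 and 4.58 in the control males against 5.05, 5.20 and 5.22 in the mutant males. In control females it read 4.05, 4.48 and 5.20, and in mutant females 5.14, 5.34 and 4.76. Its level in control female 3 was above that of 2 of the 3 mutant females. The mean difference was 0.53 ± 0.17 (limma adjusted p = 0.163), and within slides it was 0.45 in males and -0.11 in females.

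The oxygen-sensing hydroxylases Egln1 and Egln3 are HIF targets that act back on HIF. Egln1 read -1.65, -1.54 and -1.25 in the control males against -1.13, -1.55 and -1.10 in the mutant males. Its female levels were -1.56, -1.44 and -0.80 in the control females against -0.74, -0.42 and -0.95 in the mutant females. It overlapped in both sexes, with differences of 0.22 ± 0.22 in males (limma adjusted p = 0.594) and 0.57 ± 0.22 in females (limma adjusted p = 0.459). Egln3 read -2.11, -2.69 and -2.20 in the control males against -2.11, -1.78 and -1.77 in the mutant males, where mutant males 2 and 3 stood clear of the controls and mutant male 1 was level with the highest control at 2 decimals. In females Egln3 overlapped and its difference had the opposite sign, -0.19 ± 0.22 (limma adjusted p = 0.668).

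Among the glycolytic enzymes, Hk1 and Hk2, the hexokinases that trap glucose in the cell, had the same pattern. Hk1 read 2.16, 1.89 and 2.14 in the control males against 2.86, 2.33 and 2.84 in the mutant males. Female values were 2.22, 2.12 and 2.98 in the control females against 2.61, 3.33 and 2.74 in the mutant females. Its averaged difference was 0.53 ± 0.18 (limma adjusted p = 0.168), with 0.80 within slide 1 and -0.08 within slide 3. Control female 3 exceeded 2 of the 3 mutant females. The other Hk1 probes averaged 0.42, 0.17, 0.33 and 0.43, with 0.40, -0.02, 0.31 and 0.17 in females. Hk2 read 0.45, 0.45 and 0.34 in the control males against 0.92, 0.72 and 1.01 in the mutant males. In females it read 0.50, 0.36 and 1.25 in controls against 0.95, 1.25 and 0.79 in mutants. Its averaged difference was 0.38 ± 0.15 (limma adjusted p = 0.186), with 0.505 within slide 1 and -0.250 within slide 3.

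Pfkl, the liver-type subunit of phosphofructokinase, the committed step of glycolysis, read 0.85, 0.55 and 0.68 in the control males against 1.08, 1.11 and 1.39 in the mutant males. Female controls read 0.40, 0.53 and 1.11 and female mutants 1.14, 1.49 and 0.70. The male groups did not overlap and the female groups did. The averaged difference was 0.47 ± 0.16 (limma adjusted p = 0.168). Pfkfb3, which makes the activator of phosphofructokinase, differed by 0.35 ± 0.14 on average (limma adjusted p = 0.187), with control female 3 at 2.07 above every mutant female. Its other 2 probes averaged 0.09 and -0.25, with -0.20 and -0.62 in females against 0.29 on the representative probe, so the direction of Pfkfb3 in females and on average depends on the probe.

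Pfkp, the platelet-type subunit of the same enzyme, went the other way on its representative probe. It read -2.61, -2.45 and -2.41 in the control males against -2.87, -2.83 and -2.73 in the mutant males, with no overlap, and averaged -0.25 ± 0.10 over the sexes (limma adjusted p = 0.186). The second Pfkp probe differed by 0.88 in males and 0.52 on average, so the 2 probes had opposite signs and Pfkp has no settled direction. Over the 14 genes with a second probe, the sign of the male difference was the same for 11 and opposite for P4ha1, Pfkp and Gapdh. In females the sign was the same for 10 and opposite for Vegfa, Ero1a, Pfkp and Pfkfb3. For the average it was the same for 10 and opposite for Vegfa, Pdk1, Ero1a and Pfkp, and for the difference between the mutant effects of the sexes it was the same for 8.

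Pkm, pyruvate kinase, which makes pyruvate and ATP in the last step of glycolysis, read 3.32, 3.11 and 3.30 in the control males against 3.38, 3.41 and 3.58 in the mutant males. The female arrays gave 2.96, 2.94 and 3.39 in controls against 3.50, 3.75 and 3.30 in mutants. Its difference was larger in females, 0.42 ± 0.16 (limma adjusted p = 0.452), than in males, 0.21 ± 0.16 (limma adjusted p = 0.504), although the female groups overlapped through control female 3. Gapdh, the step that yields NADH, varied least of all 33 over the 12 arrays, with an SD of 0.12, and Hk1 most, with an SD of 0.436. The averaged Gapdh difference was 0.004 ± 0.078 (limma adjusted p = 0.978).

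**Figure D3:**
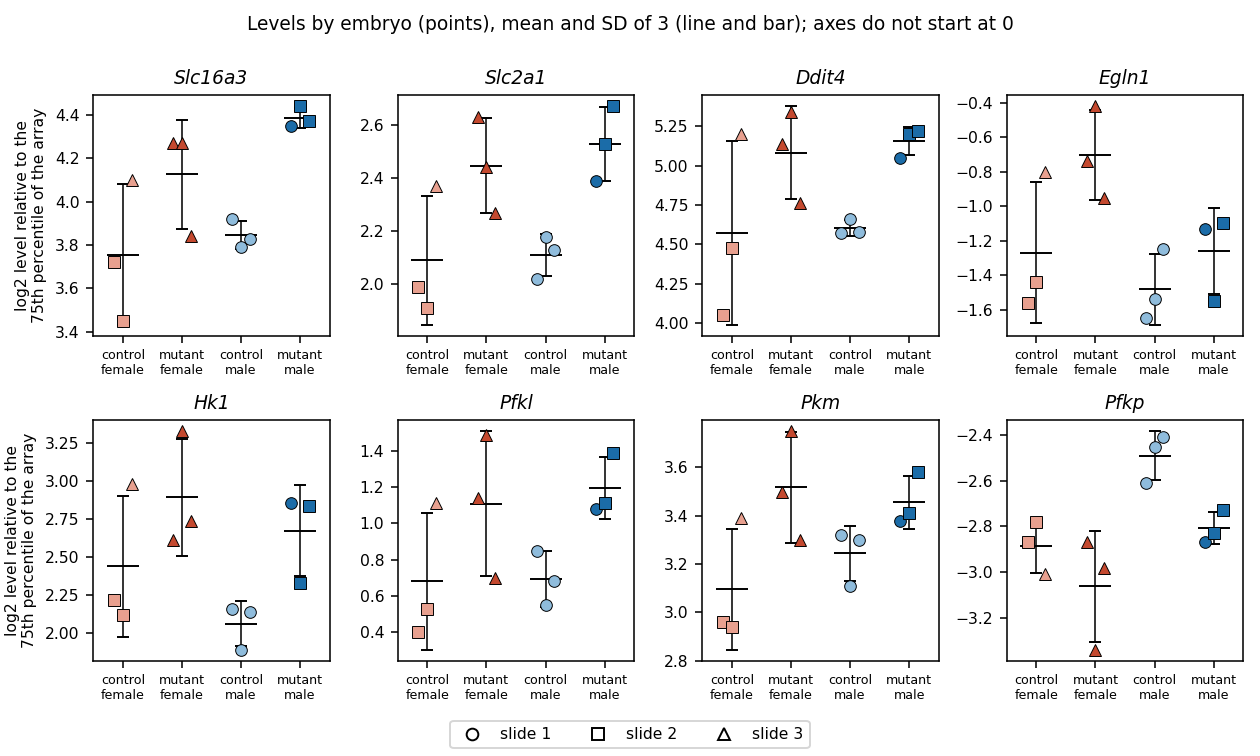
Log2 level (vertical axes, relative to the 75th percentile of the array) of 8 genes in the 12 embryos, with the mean and SD of each group of 3 and marker shapes for the 3 slides. For all genes but Pfkp the control female on slide 3 (triangle) lies above the 2 on slide 2 (squares), and for Slc16a3, Slc2a1, Ddit4, Hk1, Pfkl and Pkm the mutant males lie above the control males.

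The remaining targets did not separate mutants from controls. The angiogenic factor Vegfa differed by 0.23 ± 0.18 in males (limma adjusted p = 0.519), with 0.42 within slide 1 and -0.31 within slide 3. Bnip3 and Bnip3l, receptors that mark mitochondria for autophagy, averaged -0.09 ± 0.12 and -0.24 ± 0.10. Pdk1, which blocks the entry of pyruvate into the mitochondrial cycle, and P4ha1, a collagen prolyl hydroxylase, averaged -0.002 ± 0.122 and -0.003 ± 0.096, and the pH-regulating carbonic anhydrase Car9 -0.13 ± 0.16. The stress-responsive gene Ndrg1 averaged 0.21 ± 0.17 and Ankrd37, an ankyrin repeat gene induced by hypoxia, 0.11 ± 0.12. Adm, the vasodilator peptide adrenomedullin, P4ha2, a second collagen prolyl hydroxylase, Ero1a, an oxidase of the endoplasmic reticulum, and the cytokine Mif had averaged differences between -0.27 and 0.13. Of the enzymes not yet given, Aldoc averaged -0.23, Eno1 -0.21, Aldoa -0.16, Pgk1 -0.13, Ldha -0.12, Tpi1 -0.02 and Pgam1 0.16, each with a limma adjusted p of 0.243 or more. The sign of the mutant difference was the same in males and females for 25 of the 33. The share of all features with the same sign in both sexes was not counted, so this is not a result about these genes.

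For the difference between the mutant effects of the sexes, no gene passed a limma adjusted p of 0.05 and none an unadjusted p under 0.05. Of all features, 0% and 3.65% did. The 95% interval of that difference reached beyond 2-fold for Egln1, Egln3 and Ndrg1.

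Without control female 3, the averaged mutant difference passed a limma adjusted p of 0.05 for 11 of the 33 genes (33.3%), of which 10 were higher and 1 lower in mutants. The same change raised the share of all features called from 1.12% to 25.1%, of which 11.7 percentage points were higher and 13.4 lower. Of the 18 HIF targets 5 were called: Slc16a3 at 0.54 (limma adjusted p = 0.0207), Slc2a1 at 0.46 (0.0225), Ddit4 at 0.69 (0.0181) and Egln1 at 0.51 (0.0302) were higher, and Bnip3l at -0.31 (0.0343) was lower. Of the 15 enzymes 6 were called, all higher: Hk1 at 0.67 (limma adjusted p = 0.0278), Hk2 at 0.52 (0.022), Pfkl at 0.57 (0.0293), Pfkfb3 at 0.48 (0.0206), Pkm at 0.39 (0.0294) and Gpi1, the isomerase that follows hexokinase, at 0.28 (0.0495). The call of Pfkfb3 is that of its representative probe. Without that array, all female controls were on slide 2 and all female mutants on slide 3, so that genotype and slide cannot be told apart in females. In females alone, 11 of the 33 genes (33.3%) then had all mutants above both remaining controls, against 25.1% of all features, and 10 (30.3%) had all mutants below, against 34.2%. The 11 included 9 of the 10 genes that separated the male groups, together with Vegfa and Egln1. The share of all features that did so in both sexes was not counted. Within slide 3, the mean of the mutant females was above control female 3 for 4 of the 10: Slc2a1, Slc16a3, Gpi1 and Pkm. Without control female 3, none of the 33 passed the limma threshold in females alone (smallest adjusted p = 0.07), as 0.693% of features did. At an unadjusted limma p under 0.05 there were 11 (9 higher, 2 lower), against 34.5%. The female difference without control female 3 was 0.54 for Slc16a3, 0.49 for Slc2a1, 0.82 for Ddit4, 0.80 for Egln1 and -0.06 for Egln3. Among the enzymes it was 0.72 for Hk1, 0.57 for Hk2, 0.64 for Pfkl and 0.57 for Pkm. The female median was then -0.082 for the HIF targets and 0.093 for the enzymes, beside -0.107 over all features. With slide as a block and all 12 arrays, none of the 33 was called, and the difference of Slc16a3 was 0.27 (limma adjusted p = 0.839). In that fit each sex is compared within 1 slide, where 1 genotype has a single array. There the median of the HIF targets was -0.012 in males and -0.013 in females, and that of the enzymes -0.153 and -0.034.

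**Figure D4:**
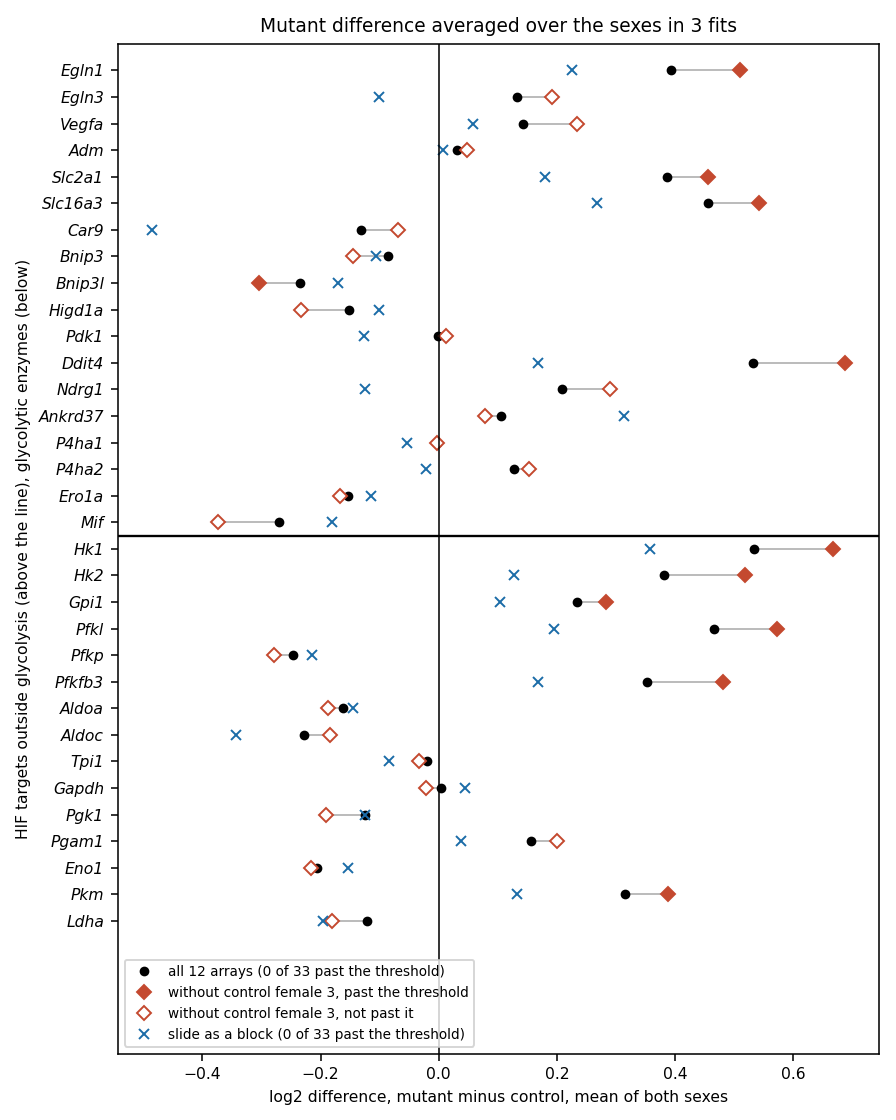
Mutant minus control difference averaged over the sexes, in log2 units (horizontal axis), for each gene with all 12 arrays (circles), without control female 3 (diamonds, filled past the limma threshold) and with slide as a block (crosses). The filled diamonds mark 11 of 33 genes, and for each of these the value with slide as a block lies nearer to 0 than the value of the full fit.

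Markers of other cells also had higher means in mutant males. All 8 mesonephric epithelium markers did so, 6 of them without overlap, beside 8.41% of features. None passed the limma threshold (smallest adjusted p = 0.0707), and 4 of 8 had an unadjusted p under 0.05, beside 11.9% of features. Their summed level lay between -0.09 and 0.12 in control males and between 0.89 and 1.43 in mutant males. In females it lay between 0.50 and 0.66 in controls and between 0.26 and 1.37 in mutants. Immediate early genes, which respond to handling, were higher in mutant males for 9 of 10, with summed levels of 3.94 to 5.07 in controls and 4.02 to 5.67 in mutants. Means were also higher in mutant males for 7 of 8 endothelial (median 0.60), 5 of 5 macrophage and leukocyte (0.53) and 7 of 7 erythroid markers (0.41). The same held for 5 of 5 germ cell (0.16), 5 of 7 neural (0.42) and 3 of 8 mesenchyme markers (-0.06), beside 44.7% of all features. None of these passed the limma threshold in males, and the summed levels of each type overlapped. Those of the erythroid markers were 5.07 to 7.98 in control males and 4.83 to 8.39 in mutant males. The part of any of these in the results for the 33 genes was not tested.

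Between the sexes, most of the 33 genes had higher means in males, and none passed a limma adjusted p of 0.05, in controls or in mutants. Of all features, 0.177% and 0.13% did. At an unadjusted limma p under 0.05 there were 7 genes in controls (6 higher in males, 1 lower) and 11 in mutants (10 higher, 1 lower), against 10.8% (6.39% higher, 4.41% lower) and 11.5% (7.13% higher, 4.37% lower) of features. The enzymes were higher in control males for 12 of 15, with a median of 0.19, and the HIF targets for 12 of 18, with a median of 0.10, beside 55.6% of all features and a median of 0.039. In the mutants the counts were 11 of 15 and 16 of 18, beside 56.6%. These counts depend on the scaling. In controls the enzymes were higher in males for 9 of 15 (median 0.033) after quantile normalization and 10 of 15 (0.068) after cyclic loess, and the HIF targets for 11 of 18 (0.043) and 9 of 18 (0.017). In mutants the enzymes were higher for 9 of 15 and 10 of 15, and the HIF targets for 14 of 18 under either. After quantile normalization 51.7% of all features were higher in control males, and after cyclic loess 49.6%. Control males and control females shared no slide, nor did mutant males and mutant females, so sex and slide cannot be told apart within a genotype.

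All 3 control males lay above all 3 control females for 10 of the 33 genes (30.3%), against 10% of all features: P4ha1, Pdk1, Ero1a, Higd1a, Pfkp, Aldoa, Tpi1, Gapdh, Pgk1 and Ldha. In mutants 12 genes did so (36.4%), against 14.2% of features, and 7 genes did so in both genotypes: P4ha1, Pdk1, Higd1a, Pfkp, Aldoa, Tpi1 and Pgk1. The share of all features that did so in both genotypes was not counted. Without control female 3 the count in controls was 19 of 33 (57.6%), against 14.1% of features. None of the 33 then passed the limma threshold for sex in controls (smallest adjusted p = 0.76), as 0.0991% of features did, and 2 had an unadjusted p under 0.05, against 6.39%. The medians were then 0.27 for the enzymes and 0.12 for the HIF targets, beside 0.016 over all features. Car9 was the 1 gene with all control males below all control females, which 5.9% of features had (11% without control female 3, where Car9 was again the 1 gene). Egln1 was the 1 gene with all mutant males below all mutant females, against 8.68%.

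Aldoa, the main aldolase, read 8.28, 8.13 and 8.05 in control females and 8.80, 8.40 and 8.39 in control males. Mutant females read 7.85, 7.94 and 7.95 and mutant males 8.38, 8.60 and 8.35. The male arrays were above the female arrays in both genotypes. The sex difference was 0.38 ± 0.14 in controls (limma adjusted p = 0.426) and 0.53 ± 0.14 in mutants (limma adjusted p = 0.256). This probe was saturated on 4 of the 12 arrays, and after quantile normalization the 2 sex differences were -0.04 and -0.01, so their size and sign are uncertain. The second Aldoa probe gave 0.39 in controls and 0.52 in mutants.

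Eno1, the enolase that makes phosphoenolpyruvate, read 2.42, 2.29 and 2.29 in control females and 3.17, 2.93 and 2.39 in control males. Control male 3 lay just under control female 1, so the groups overlapped by 1 embryo. The difference was 0.49 ± 0.19 (limma adjusted p = 0.460). Pfkp differed by 0.40 ± 0.14 in controls (limma adjusted p = 0.407), and its second probe by -0.29.

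P4ha1 read 0.28, 0.18 and 0.24 in control females and 0.64, 0.68 and 0.43 in control males. Mutant females read 0.43, 0.23 and 0.01 and mutant males 0.49, 0.77 and 0.49. Males were above females in both genotypes without overlap. The difference was 0.35 ± 0.14 in controls (limma adjusted p = 0.456) and 0.36 ± 0.14 in mutants (limma adjusted p = 0.385). Its second probe gave 0.33 and 0.29.

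Higd1a, a mitochondrial protein of the hypoxia response, read 3.87, 3.82 and 3.36 in control females and 4.25, 4.04 and 3.96 in control males. The lowest control female was control female 3. The difference was 0.41 ± 0.18 (limma adjusted p = 0.463), and 0.24 without that array. Car9 read -3.26, -3.59 and -3.05 in control females and -3.74, -3.91 and -3.73 in control males, a difference of -0.50 ± 0.22 (limma adjusted p = 0.463), but with normexp background correction it was 0.17, so its direction depends on how background is treated.

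**Figure D5:**
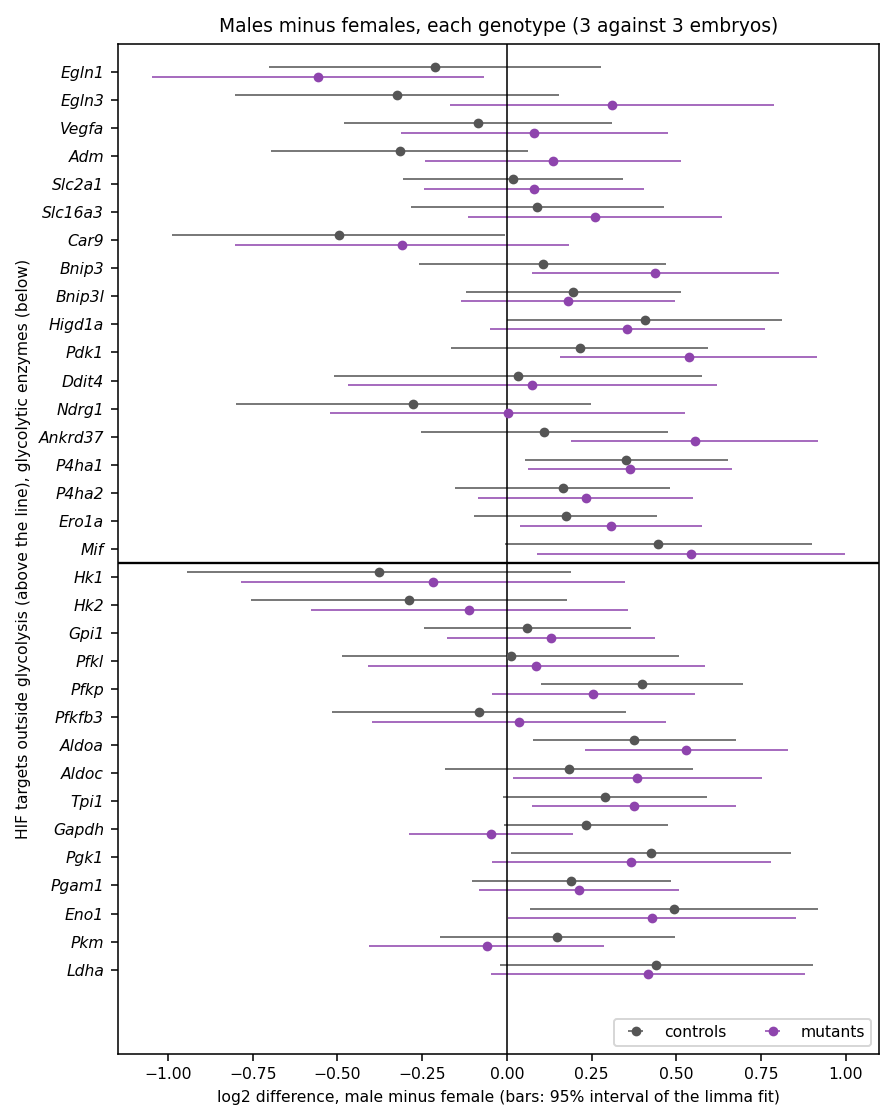
Male minus female difference of each gene in log2 units (horizontal axis) in controls and mutants, 3 against 3 embryos, with points for the limma estimate and bars for its 95% interval. In both genotypes the points of P4ha1, Higd1a, Mif, Aldoa, Pgk1, Eno1 and Ldha lie to the right of 0 and those of Egln1, Car9, Hk1 and Hk2 to the left.

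Markers of other cells and of handling were set beside the sex differences. All 10 immediate early genes had lower means in the male controls (median -1.09), and their summed levels were 3.94 to 5.07 in control males and 5.37 to 6.05 in control females. All 7 erythroid genes tested had lower means in the male controls (median -1.01), although their summed levels overlapped widely, at 5.07 to 7.98 in males and 5.84 to 9.76 in females. Endothelial markers had summed levels of 2.31 to 3.16 in control males and 2.51 to 3.05 in control females. Mesonephric epithelium markers had lower means in control males for 6 of 8 (median -0.44), 4 of them without overlap, beside 5.9% of features. In the mutants, means were higher in males for 7 of 8 mesonephric epithelium, 7 of 8 endothelial and 5 of 5 macrophage and leukocyte markers. They were also higher for 5 of 5 germ cell and 7 of 7 neural markers, beside 56.6% of all features. They were lower in mutant males for all 10 immediate early and all 7 erythroid genes. The part of any of these in the sex differences was not tested.

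The HIF pathway regulators were described beside the targets. Of the 11 tested, 10 had higher means in mutants in both sexes and none of these passed the threshold, the exception being Kdm3a itself. Hif1a, the oxygen-sensitive subunit, averaged 0.16 over the sexes (limma adjusted p = 0.283), its paralogue Epas1 0.24 (0.492) and their partner Arnt 0.37 (0.183). Without control female 3, limma called Arnt and Hif3a, another alpha subunit, higher in mutants, as 11.7% of all features were. Hif1an, the asparaginyl hydroxylase that blocks the transactivation domain of HIF, averaged 0.21 (limma adjusted p = 0.344) and Egln2, the remaining prolyl hydroxylase, 0.37 (0.185). The 6 gonadal somatic markers also had higher means in mutants in both sexes, with medians of 0.28 in males and 0.29 in females, and none passed the threshold. Vhl, which recognizes the hydroxylated alpha subunit, was not matched to a probe.

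Of 25 other HIF targets tested, none passed the limma threshold for the averaged difference (4 had an unadjusted p under 0.05, beside 23.6% of features, and 5 passed the threshold without control female 3, beside 25.1%), and their median mutant difference was -0.0043 in males and -0.046 in females. Of 16 other genes of glycolysis and lactate metabolism tested, 1 fell: Pgam2, the muscle form of phosphoglycerate mutase (6 passed the threshold without control female 3, Pgam2 among them, beside 25.1% of features). Pgam2 read -1.58, -1.69 and -1.46 in the control males against -2.71, -2.67 and -2.76 in the mutant males, and -1.62, -1.89 and -1.69 in the control females against -2.37, -3.32 and -2.20 in the mutant females. All mutants were below all controls in both sexes, control female 3 included. The averaged difference was -1.02 ± 0.17 (limma adjusted p = 0.0142), and in each sex alone it did not pass the threshold (limma adjusted p = 0.083 in males and 0.237 in females). Within slides it was -1.13 in males and -0.94 in females. The averaged call held in 20 of 22 alternatives, the exceptions being the slide block and array brightness as a covariate, and the difference ranged from -1.12 to -0.56. Pgam1, the widely expressed form among the 33, differed by 0.16 ± 0.10 (limma adjusted p = 0.291).

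Genes of oxidative metabolism were counted in the same way, beside the 44.7% of all features with higher means in mutant males and the 43.3% in mutant females. None passed the limma threshold for the averaged difference, and 5 of 23 and 2 of 20 had an unadjusted p under 0.05, beside 23.6% of features. Of 23 genes for pyruvate entry and the tricarboxylic acid cycle, 17 had lower means in mutant males (median -0.21) and 13 in mutant females (median -0.12), the latter near the share of all features. Of 20 respiratory chain genes, 17 were lower in mutant males and 16 in mutant females, with medians of -0.20 in both. All 20 had higher means in control males than in control females, with a median of 0.20, beside 55.6% of all features and a median of 0.039. None passed the limma threshold for sex in controls (smallest adjusted p = 0.457), and 1 had an unadjusted p under 0.05, beside 10.8% of features. Sex and slide cannot be told apart in the controls. Without control female 3, limma called 10 of the 23 genes lower and 1 higher, and 10 of the 20 lower, where 13.4% of all features were lower and 11.7% higher. In that fit genotype and slide cannot be told apart in females.

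The mutant difference was also set beside the promoter letters, with no test. The 24 genes with ACGTG had a median of 0.164 in males and 0.0248 in females, and the 7 without ACGTG 0.16 and -0.163. Of these 7, Pdk1, Adm, Eno1, Pfkl and Pfkp held the other core, GCGTG, so the split is by ACGTG alone. Of the 10 genes that separated the male groups, Gpi1 and Pfkl had no ACGTG in their windows.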

How the data were processed

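Gonadal somatic cells of single embryos (about 40000 purified from about 200000, per the labels' protocols) were profiled on 12 one-colour Agilent arrays. The deposited intensity is the processed signal of Feature Extraction 10.5.1.1 for array design 014868 (mm9 build), per the file headers: linear, with background removed and without scaling across arrays.

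Here each log2 intensity had the array's 75th percentile subtracted, control and outlier spots were dropped and repeat spots averaged. A probe was kept where every array of some group was well above background. Of 41174 probes, 27479 took a symbol from RefSeq (GRCm38.p6), which supplied names and promoter windows and no array coordinates. Features were fitted by group means in limma 3.58.1 (R 4.3.3), with Benjamini-Hochberg adjustment over 19180 features. Between 58.0% and 65.2% of spots were well above background, and the number of arrays limits precision. The members and lists were chosen with earlier results of these data known. The members read array by array were, in each group, the 4 with the smallest p for the averaged mutant difference and the 3 for sex in controls; others given array by array (Egln3, Hk2 and Pgam2) were added after their values were seen or because they passed the threshold. In simulated data (19180 features, male mutant effect) limma recovered 18 of 50 at 1.5-fold, 23 of 50 at 2-fold and 46 of 50 at 4-fold, with 8 false calls. The simulated noise was independent between features and had no slide effect, and all changes, up to 8-fold, were planted together. Recovery in the real data can therefore be lower.

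Alternatives were quantile and cyclic loess normalization, normexp background correction, other filters, second probes, array brightness, slide or replicate number as a block, only the groups compared, and leaving out each array. Same-numbered arrays of different groups did not deviate together (median correlation -0.116 over 18 pairs), so the numbers were not taken as pairs.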

Additional observations from a re-analysis of the deposited data

How the results depend on the processing

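In the mutant difference in males, the mutant difference in females, both sex differences and the difference of the mutant effects, 0 of the 33 genes passed the limma threshold under all 22 alternatives. For the averaged mutant difference the count was 1 (Slc16a3) with normexp background correction and ranged from 0 to 11 when single arrays were left out, 11 without control female 3. The counts of all features called ranged over the alternatives from 21 to 103 in males (90 in the full fit), 13 to 133 in females (68), 58 to 4820 on average (214), 10 to 42 for sex among controls (34), 7 to 38 for sex among mutants (25) and 0 to 8 for the difference of the mutant effects (0). The replicate block gave 62, 48, 175, 23, 16 and 0 features and no call among the 33, and the pairing by number was not borne out.

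With slide as a block the median of the HIF targets was -0.012 in males, -0.013 in females, -0.077 on average, 0.338 (sex, controls) and 0.357 (sex, mutants). That of the enzymes was -0.153 in males, -0.034 in females, 0.383 (sex, controls) and 0.414 (sex, mutants). With second probes the HIF median was -0.002 in males, -0.041 on average and 0.002 for the difference of the mutant effects, and the enzyme median was -0.019 in females, 0.054 (sex, controls) and 0.414 (sex, mutants). Quantile normalization gave enzyme medians of 0.146 on average, 0.033 (sex, controls) and 0.070 (sex, mutants), and cyclic loess gave 0.074 for sex in mutants. With single arrays left out, the HIF median in females ranged from -0.130 to -0.008 and the enzyme median of the difference of the mutant effects from -0.068 to 0.128.

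Among the 13 genes read array by array, signs are compared where the estimate exceeded its SE. Second probes turned Pfkp to 0.878 in males, 0.152 in females, 0.515 on average and -0.290 for sex in controls, and in the mutant sex difference Egln1 to 0.089 and Higd1a to -0.011. Quantile normalization turned Aldoa to 0.072 in females, 0.086 on average, -0.040 (sex, controls) and -0.011 (sex, mutants). The slide block turned Ddit4 to -0.114, Hk1 to -0.081 and Pfkl to -0.001 in females, Car9 to 0.312 for sex in controls, and in the mutant sex difference Car9 to 0.296, Egln1 to 0.080 and Higd1a to -0.021. Normexp turned Car9 to 0.169 and 0.194 for sex in controls and mutants. Array brightness as a covariate turned Higd1a to 0.014 on average and -0.017 for sex in mutants. The cause of these changes was not tested.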
